A study of Homo sapiens with 24 samples.

Results

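HCC1806 is an established line of triple-negative breast cancer (lacking oestrogen receptor, progesterone receptor and HER2) with basal and squamous epithelial features. Its genome-doubled derivatives made by cell fusion are compared here, across all expressed genes, with those made by cytokinesis failure. The comparison uses 6 of the 24 libraries of the series, 3 of fusion and 3 of cytokinesis failure, and 11467 of 29744 annotated genes had enough counts to be tested. Both populations descend from the same parental aneuploid line, had gone through whole-genome doubling, were isolated by flow sorting and were expanded. For the libraries, 200000 cells per well were seeded and grown for 48 hours with no treatment after plating. The parental population (the control) and a population that doubled through mitotic slippage were sequenced alongside, with 3 libraries each, and the same 4 populations exist in MDA-MB-231, a mesenchymal triple-negative line. The labels call the libraries of a group biological replicates without saying whether they came from separate derivations. If those of a route came from 1 derived population, route and population cannot be told apart. The p-values below measure the spread between the libraries of a group, which may all come from 1 population.

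Both routes end in a cell with a doubled genome, but they reach it differently. In fusion, whole cells merge, so that their genomes, cytoplasms and centrosomes are pooled, whereas in cytokinesis failure a cell separates its chromosomes and then does not cleave, keeping both nuclei and both centrosomes. Doubled cells are known to lose and gain chromosomes during later growth, so that populations expanded from them can differ in karyotype as well as in gene regulation. In basal breast cancer lines, epidermal growth factor receptor (EGFR) signalling through the kinase ERK is known to induce immediate early transcription factors and the phosphatases that limit ERK itself, and basal keratins such as KRT14 and KRT6A mark the keratinocyte-like state.

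RNA was read by TAGseq, which sequences the 3′ ends of polyadenylated transcripts. Library totals ran from 3310556 to 3486753 estimated counts in fusion and from 3829229 to 4030297 in cytokinesis failure, so depth did not overlap between the groups. Genes detected ran from 14716 to 14831 in fusion and from 15086 to 15235 in cytokinesis failure. Pairs of replicates differed with a chi-square of 1.35 to 1.54 per degree of freedom, and no library of the 6 stood apart. Of 11 epithelial and basal genes that mark HCC1806, 10 were tested, and KRT5, KRT14, KRT6A and EPCAM were well detected in all 6 libraries. Vimentin (VIM), the intermediate filament of mesenchymal cells such as those of MDA-MB-231, reached 2 counts in the fusion libraries and 1 in those of cytokinesis failure, and ZEB1, a repressor of the epithelial state, had 0 in each. Not all markers of MDA-MB-231 were absent. The 7 of them summed to 46.3 to 54.7 CPM (counts scaled to a common library total) in fusion and 64.2 to 67.0 CPM in cytokinesis failure. Of these, 3 were tested, and CDH2 and FN1 were lower in fusion. The 7 fibroblast markers summed to 3.18 to 6.38 CPM in fusion and 4.94 to 5.21 CPM in cytokinesis failure, with COL1A1 alone tested and COL1A2 and PDGFRB at 0 in all 6 libraries. No endothelial marker (PECAM1, VWF, CDH5, KDR) had more than 1 count in any of them. The 6 immune markers summed to 34.9 to 38.2 CPM in fusion and 25.1 to 29.3 CPM in cytokinesis failure, nearly all of it CD68, a lysosomal protein that tumour cells also express, while CD3E, MS4A1 and LYZ were at 0 throughout.

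Fusion and cytokinesis failure differed at 2055 genes, 17.9% of those tested, with 1028 higher in fusion (8.96%) and 1027 lower (8.96%) at a Benjamini-Hochberg adjusted p below 0.05 in edgeR's quasi-likelihood test. Throughout, higher and lower refer to fusion relative to cytokinesis failure and to genes past that threshold, levels are CPM scaled by TMM factors and given in replicate order, and differences are log2 values ± standard error. The share of all tested genes called in each direction, 8.96%, is the background for every list below. Most differences were small: the median absolute difference was 0.15 over all tested genes and 0.35 over those called. At least 2-fold differences were found in 199 genes, 9.68% of the calls, of which 81 were higher and 118 lower. In 1955 of the 2055 called genes, the 3 libraries of one group all lay above the 3 of the other, and this was so in 3677 of all 11467 tested genes. Because depth differed between the groups, the counts were also thinned to the smallest library, which left 1803 calls, 906 higher and 897 lower. DESeq2 called 933 genes, 482 of them higher. On the deposited TPM the even split did not hold: limma on log2(TPM + 1) called 328 genes higher and 1168 lower, with the median over all genes at -0.077 in place of 0.0023. No TMM or other scaling between libraries was applied to the TPM, so every count on TPM below includes this shift. The cause of the shift was not tested. In bulk RNA, fewer cells of a type and less RNA per cell cannot be told apart.

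**Figure D1:**
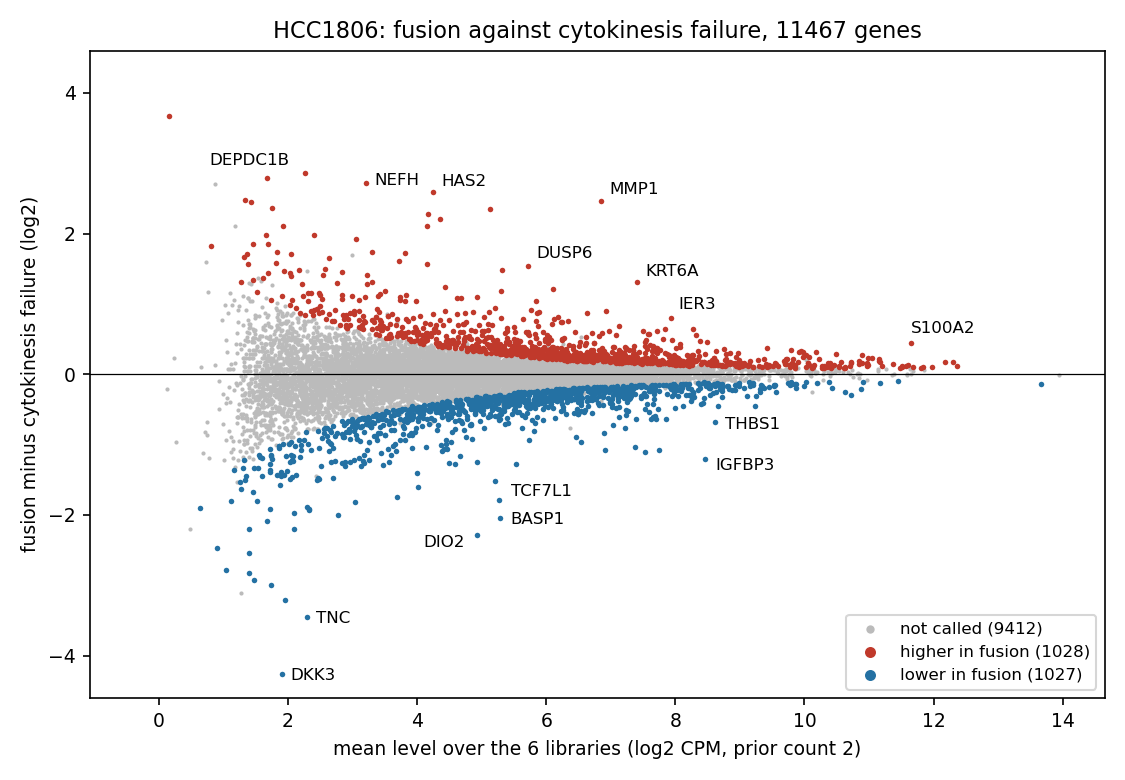
Log2 difference between fusion and cytokinesis failure (vertical axis) against mean log2 CPM (horizontal axis) for the 11467 tested genes, each a point, with called genes coloured by direction. The 1028 higher and 1027 lower genes lie in similar numbers on both sides of 0; 9 genes, none of them called, lie beyond the vertical axis.

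The 15 genes with the largest higher level in fusion, among called genes of at least 2 in mean log2 CPM whose groups did not overlap, were led by a cell division regulator, a neurofilament, a hyaluronan synthase and a collagenase. HAS2, which makes the matrix polysaccharide hyaluronan (chromosome 8, 121612116 to 121641440 on GRCh38), stood at 42.8, 46.4 and 46.6 CPM in fusion and at 9.21, 6.26 and 6.92 CPM in cytokinesis failure. Every fusion library was several times above every cytokinesis failure library, with control (28.8, 35.8 and 32.8) and slippage (19.3, 15.6 and 19.6) between them. The difference was 2.59 ± 0.15 (6.03-fold, adjusted p = 1.4e-26). Its antisense neighbour HAS2-AS1 was higher by 1.65 ± 0.27, though reads of overlapping antisense genes may be shared where strand was not used in counting. A further hyaluronan synthase gene, HAS3, was at 51.6, 62.7 and 63.1 CPM in fusion and 23.4, 29.99 and 24.5 in cytokinesis failure (difference 1.19 ± 0.11, adjusted p = 3.8e-16), and the hyaluronan receptor CD44 was higher by 0.31 ± 0.033 (adjusted p = 9.0e-13). MMP1, the interstitial collagenase (chromosome 11, 102789919 to 102798160), was at 268, 275 and 274 CPM in fusion and 38.1, 52.4 and 57.1 CPM in cytokinesis failure. The fusion libraries were close to each other and just above the controls (212, 251 and 245), and slippage lay between the doubled populations (114, 120.1 and 123). MMP1 differed by 2.47 ± 0.088 (5.54-fold, adjusted p = 2.1e-17).

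SERPINB2, an inhibitor of the plasminogen activator urokinase, was at 29.2, 38.6 and 39.9 CPM in fusion and 6.72, 9.65 and 8.65 CPM in cytokinesis failure, while the controls held 45.2, 45.7 and 45. Its groups did not overlap, the controls exceeded both, and the difference was 2.10 ± 0.16 (adjusted p = 2.3e-20). FYB, an adaptor protein known from T cell signalling, stood at 78.1, 83.9 and 71 CPM against 13.2, 16.7 and 15.8 CPM, a difference of 2.35 ± 0.11 (adjusted p = 8.4e-33). The leukocyte marker PTPRC had at most 1 count in any of the 6 libraries. DEPDC1B, a protein linked to cell adhesion around mitosis, had the largest difference of this set, 2.86 ± 0.32, on a low level of 8.26, 12.5 and 12.8 CPM in fusion and 1.99, 1.83 and 0.741 in cytokinesis failure. NEFH, the neurofilament heavy chain, stood at 23.9, 26.99 and 17.98 CPM in fusion and 1.49, 5.22 and 3.71 in cytokinesis failure, where its replicates spread by several times, and differed by 2.73 ± 0.23 (adjusted p = 1.5e-16). Here the controls (7.07, 4.64 and 7.24) were close to cytokinesis failure, so the fusion libraries were the ones that stood apart. CCNA1, the cyclin A of the germ line, was higher by 2.28 ± 0.16, and the cancer-testis antigen MAGEA10 by 2.21 ± 0.15. The remaining 6 of the set were the monocarboxylate transporter family member SLC16A9, the NF-kB inhibitor TNFAIP3, the tetraspanin TSPAN5, the heparan sulfate sulfotransferase HS3ST1, the axonal transport protein FEZ1 and the calcium-binding S100A14, with differences from 1.61 to 1.98. In 12 of the 15 the mean of the control lay between those of fusion and cytokinesis failure, and in the other 3 it lay above fusion.

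The 15 genes with the lowest relative level in fusion, by the same rule, included a matrix glycoprotein, a thyroid hormone enzyme and a Wnt pathway repressor. TNC, encoding tenascin-C (chromosome 9, 115019575 to 115118157), was at 1.18, 1.16 and 1.22 CPM in fusion and 13.9, 13.3 and 12.6 CPM in cytokinesis failure. All fusion libraries were near 1 CPM, well under control (7.07, 5.64 and 8.02) and slippage (6.54, 6.37 and 8.36), and the difference was -3.45 ± 0.31 (adjusted p = 5.5e-16). DIO2, the deiodinase that activates thyroid hormone, stood at 13.9, 12.8 and 14.02 CPM in fusion and 70.98, 65.2 and 61.3 CPM in cytokinesis failure, a difference of -2.28 ± 0.12 (adjusted p = 1.3e-29). BASP1, a membrane-bound cytoskeletal and transcriptional regulator, was at 21.2, 22.6 and 13.4 CPM against 83.9, 63.4 and 88.4 CPM (-2.04 ± 0.13, adjusted p = 2.4e-13). TCF7L1, the TCF family member that mostly represses Wnt targets, was at 20.1, 19.2 and 21.9 CPM against 79.7, 61.3 and 69.7 CPM, with controls at 36.5, 34.8 and 38.5. For DIO2 and TCF7L1 the control and slippage libraries all lay between the doubled populations compared. TCF7L1 differed by -1.79 ± 0.11 (adjusted p = 2.6e-25). EPB41L2, a membrane skeleton protein, fell from 63.8, 60.2 and 60.3 CPM in cytokinesis failure to 19.2, 21.2 and 24.1 CPM in fusion, a difference of -1.52 ± 0.11. The other 10 were the p38 kinase activator MAP2K6, the ubiquitin ligase adaptors FBXO2 and FBXO27, the leukaemia inhibitory factor receptor LIFR, the phosphatase genes PPM1H and PPP2R2B, AUTS2, SAMD12, PP14571 and myoglobin (MB). They differed by -2.20 to -1.51, all on levels under 10 CPM in fusion. The control mean lay between the doubled populations for all 15, against 743 of the 1027 lower genes as a whole and 623 of the 1028 higher ones. The 15 were chosen for a wide difference, which by itself makes a mean in between more likely. Of the 118 lower genes of at least 2-fold, it lay between for 105.

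DKK3, a secreted Dickkopf family glycoprotein (chromosome 11, 11963036 to 12009745), did not meet the level minimum of this rule but was the lowest of all tested members of the gene lists. It stood at 0.59, 0.871 and 0.305 CPM in fusion and 12.5, 11.5 and 12.1 CPM in cytokinesis failure. Every fusion library was below 1 CPM, and the difference was -4.26 ± 0.37 (adjusted p = 1.7e-16). Among abundant genes, IGFBP3, which binds insulin-like growth factors, was at 230.3, 217 and 248 CPM in fusion and 569.8, 507 and 531 CPM in cytokinesis failure, with control at 296, 299 and 300.3. The fusion libraries lay below the controls and the cytokinesis failure libraries far above them, and the difference was -1.21 ± 0.046 (adjusted p = 4.0e-38), the smallest adjusted p among the genes given here.

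**Figure D2:**
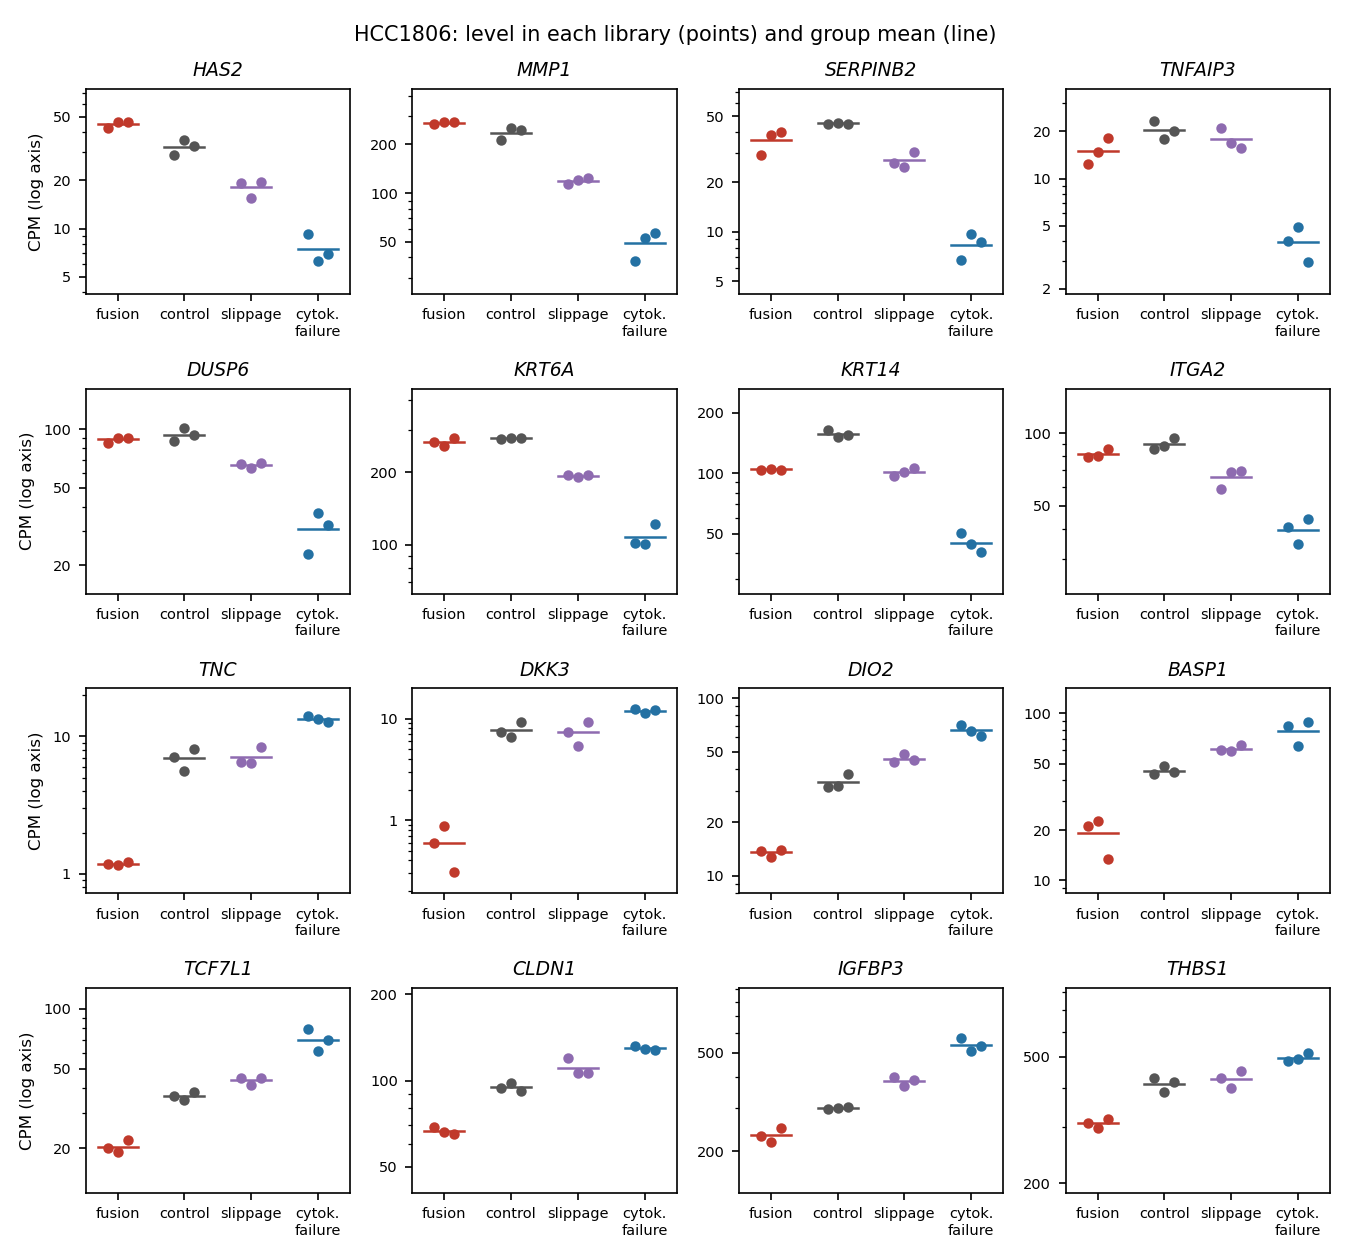
CPM on a log axis for 16 genes in each library of the fusion, cytokinesis failure, control and slippage populations of HCC1806, 1 panel a gene, with a point per library and a line at the group mean. For HAS2, MMP1, KRT6A and ITGA2 the fusion points lie near or above the control points while cytokinesis failure lies below; for TNC, DKK3, DIO2 and IGFBP3 the order is the opposite.

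Immediate early and ERK feedback genes were higher in fusion in 15 of 31 tested members and lower in none, against 8.96% higher over all genes, with a median difference of 0.26. DESeq2 called 7 of them higher and limma on TPM 8, again with 0 lower, and at an unadjusted p below 0.05 edgeR's quasi-likelihood test had 17 higher and 0 lower. Summed over the tested members, the control (1977 to 2114 CPM) lay above fusion (1833 to 1922 CPM), and cytokinesis failure was lowest (1366 to 1482 CPM). DUSP6, the phosphatase that dephosphorylates ERK (chromosome 12, 89347235 to 89352501), was at 85.5, 90.6 and 90.5 CPM in fusion and 22.9, 37.3 and 32.1 CPM in cytokinesis failure. Fusion overlapped the control range (87.1 to 101), every cytokinesis failure library was below every other HCC1806 library, and the difference was 1.53 ± 0.094 (adjusted p = 3.2e-23). FOSL1, the AP-1 subunit Fra-1, was at 73.1, 86.2 and 80.1 CPM against 41.1, 41.7 and 46.4 CPM (0.89 ± 0.085, adjusted p = 1.1e-14). IER3, an early response survival gene, was at 303, 323 and 338 against 165, 203 and 184 CPM (0.80 ± 0.053, adjusted p = 5.1e-21). PHLDA1, a pleckstrin-like protein induced by growth factors, differed by 0.61 ± 0.058, and the phosphatases DUSP4 and DUSP5 by 1.13 ± 0.17 and 0.60 ± 0.16. MYC, the growth-promoting transcription factor, stood at 87.3, 90.8 and 93.9 CPM in fusion and 52.8, 53.5 and 51.9 in cytokinesis failure, with groups apart and a difference of 0.78 ± 0.077 (adjusted p = 3.5e-14). EGR1 was low, at 2.36, 5.81 and 5.79 CPM in fusion and 1.74, 2.61 and 0.741 in cytokinesis failure. Its groups overlapped although the test called it higher (1.45 ± 0.40, adjusted p = 0.0061). FOS was not tested, with 2 to 8 counts per fusion library and 1 to 4 per cytokinesis failure library.

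Of 11 tested EGFR ligands, receptors and regulators, 3 were higher and 3 lower, with 2 and 2 by DESeq2. AREG, encoding the ligand amphiregulin, was at 93.8, 115 and 104 CPM in fusion and 55.3, 66.2 and 64.5 CPM in cytokinesis failure, and the groups did not overlap (0.75 ± 0.076, adjusted p = 2.4e-13). The ligands EREG (epiregulin, 0.38 ± 0.085) and HBEGF (0.67 ± 0.18) were higher as well. EGFR itself was lower, at 63.99, 70.2 and 65.2 CPM in fusion and 85.2, 74.6 and 92.6 CPM in cytokinesis failure (-0.34 ± 0.076, adjusted p = 4.5e-04). ERBB2 (-0.36 ± 0.10) and ERRFI1, an inhibitor of EGFR (-0.79 ± 0.13), were lower too. The other 5 did not pass the test. The 3 ligands called had their highest mean in the control, where AREG held 146, 152 and 134 CPM. AREG and EREG neighbour each other on 4q, a chromosome arm described further on.

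Of 20 tested NF-kB subunits and feedback genes, 2 were higher and 1 lower (median 0.015), a share near that of all genes. TNFAIP3, which encodes the deubiquitinating feedback inhibitor A20, was at 12.4, 14.8 and 17.98 CPM in fusion and 3.98, 4.96 and 2.96 CPM in cytokinesis failure (1.92 ± 0.23, adjusted p = 6.4e-11). The groups did not overlap, and control (17.9 to 23.1) and slippage (15.6 to 20.97) were both above cytokinesis failure. NFKB1, encoding the p105 precursor, was higher by 0.52 ± 0.088, and NFKBIB, an inhibitor of NF-kB, lower (-0.26 ± 0.073). Among inflammatory cytokines, 3 of 12 tested were higher, namely IL1A (1.42 ± 0.22), IL1B (1.16 ± 0.30) and the prostaglandin synthase PTGS2 (1.07 ± 0.24), and 2 were lower, IL18 (-0.49 ± 0.11) and the adhesion receptor ICAM1 (-0.78 ± 0.24). IL1A, a cytokine of keratinocytes, stood at 13.6, 16.3 and 14.02 CPM in fusion and 6.48, 3.13 and 6.67 in cytokinesis failure, with the groups apart (adjusted p = 5.4e-07).

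The promoters of 4 of these genes are shown because AREG, IL1A, TNFAIP3 and PHLDA1 were each higher and hold letters known to be bound by CREB, AP-1 or NF-kB factors. Each window is 120 bases, 5′ to 3′ on the strand of the gene, from RefSeq on GRCh38.p14, and capitals mark the motif found by a search of both strands of the 250 bases before the start. For TNFAIP3 the window lies inside the span of the gene (137866349 to 137883312). The start used for its promoter is therefore not the first base of that span. In AREG the motif is the cyclic AMP response element TGACGTCA, in IL1A the AP-1 motif TGACTCA, and in TNFAIP3 and PHLDA1 the NF-kB motif GGANTTTCC or its reverse complement.
AREG (chr4:74445016-74445135, plus strand): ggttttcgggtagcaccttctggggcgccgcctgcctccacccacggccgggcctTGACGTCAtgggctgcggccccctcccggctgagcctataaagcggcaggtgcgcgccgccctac
IL1A (chr2:112784494-112784613, minus strand): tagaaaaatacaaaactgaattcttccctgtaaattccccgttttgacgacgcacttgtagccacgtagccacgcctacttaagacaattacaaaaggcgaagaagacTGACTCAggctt
TNFAIP3 (chr6:137867139-137867258, plus strand): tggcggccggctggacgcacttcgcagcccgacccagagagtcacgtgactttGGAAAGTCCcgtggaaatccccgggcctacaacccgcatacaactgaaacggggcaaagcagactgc
PHLDA1 (chr12:76031777-76031896, minus strand): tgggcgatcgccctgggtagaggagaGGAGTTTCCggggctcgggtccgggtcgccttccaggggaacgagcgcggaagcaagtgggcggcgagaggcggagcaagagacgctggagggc
A promoter was held for 9144 tested genes and for 27305 genes in all. The AP-1 motif was in 4.16% of all promoters, 2.46% of those of tested genes, 3.33% of the 841 higher and 2.81% of the 819 lower genes with a promoter. For the cyclic AMP response element the shares were 1.77%, 3.01%, 3.69% and 1.83%, and for the NF-kB motif 1.47%, 1.42%, 1.31% and 1.47%. Among 21 immediate early and ERK feedback genes with a promoter, 0 held the AP-1 motif, 2 the cyclic AMP response element and 2 the NF-kB motif. Of 17 NF-kB feedback genes, 5 held the NF-kB motif (29.4%). Genes that were lower hold such motifs too, among them B2M with the NF-kB motif and FN1 with the cyclic AMP response element. A match is a description of letters, and these shares were not tested.

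Basal and squamous keratinocyte genes were higher in 10 of 34 tested members and lower in 4, with a median of 0.16. KRT6A, a keratin of activated keratinocytes (chromosome 12, 52487176 to 52493257), was at 266, 258 and 278 CPM in fusion and 102, 100.4 and 122 CPM in cytokinesis failure. Fusion was close to the control (273, 278 and 278), and the difference was 1.31 ± 0.057 (2.47-fold, adjusted p = 1.1e-34). KRT14, a keratin of the basal layer, was at 104, 105 and 104 against 50.3, 44.3 and 40.5 CPM, while the controls held 164, 151 and 154. Its groups were far apart (1.21 ± 0.077, adjusted p = 6.9e-24). KRT5, the partner keratin of KRT14, went the other way, at 394, 385 and 407 CPM in fusion and 441, 441 and 478 CPM in cytokinesis failure (-0.20 ± 0.043, adjusted p = 2.7e-04), and KRT4 was lower as well (-0.45 ± 0.037). The remaining higher members were the calcium-binding S100A2 (0.44 ± 0.03), the desmosomal plakophilin PKP1 (0.80 ± 0.10), the 14-3-3 protein SFN (0.41 ± 0.053), SERPINB5 (0.37 ± 0.051), KLK10 (0.77 ± 0.22), the cystatins CSTA and CSTB and the basal master regulator TP63 (0.33 ± 0.12, adjusted p = 0.039). SERPINB13 (-0.53 ± 0.16) and the differentiation marker IVL (-0.70 ± 0.24) were lower. DESeq2 and limma on TPM each called 6 higher, with 2 and 4 lower.

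Luminal and simple epithelial genes were lower in 11 of 21 tested members and higher in 2, with a median of -0.25. KRT19 was at 1295, 1279 and 1293 CPM in fusion and 1503, 1453 and 1489 CPM in cytokinesis failure, a small difference with groups apart (-0.20 ± 0.033, adjusted p = 1.5e-06). KRT8 (-0.22 ± 0.039) and its partner KRT18 (-0.17 ± 0.034), the receptor tyrosine kinase KIT (-1.26 ± 0.23), CLDN4 (-0.26 ± 0.062) and the luminal transcription factors GATA3 (-0.25 ± 0.08) and ELF3 (-0.24 ± 0.086) were lower too. CEACAM6 was the exception in size, with 5.60, 4.35 and 4.27 CPM in fusion and 0.996, 1.04 and 0.494 CPM in cytokinesis failure (2.45 ± 0.45, adjusted p = 1.4e-05). These calls were fewer with DESeq2, at 5 lower and 1 higher. KRT19, ELF3 and BCAM were above the control in both doubled populations, ELF3 at 31.2 ± 1.57 CPM (mean ± SD, n = 3) in control, 53.1 ± 4.14 in fusion and 62.7 ± 2.90 in cytokinesis failure.

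Of 41 tested epithelial junction genes, 12 were lower and 3 higher, the median being -0.081. CLDN1, a tight junction claudin, was at 69, 65.9 and 64.9 CPM in fusion and 132, 129 and 128 CPM in cytokinesis failure, and the groups lay on either side of the controls at 93.9, 98.4 and 91.8 (-0.96 ± 0.069, adjusted p = 5.3e-21). SPINT2, an inhibitor of membrane proteases (-0.42 ± 0.044), the membrane protease PRSS8 (-1.26 ± 0.26) and the epithelial transcription factors GRHL2 (-0.43 ± 0.08) and GRHL1 (-0.58 ± 0.17) were lower. EPCAM (-0.19 ± 0.039), desmoplakin (DSP, -0.15 ± 0.04) and the junction scaffold TJP1 (-0.24 ± 0.067) were lower by small amounts. The nectin PVRL1 was the clearest of the higher genes (0.50 ± 0.078). DESeq2 called 6 lower and 1 higher, and limma on TPM none of the higher ones. CDH1, encoding E-cadherin, was at 52.8, 60.7 and 49.7 CPM in fusion and 54.5, 56.6 and 58.8 CPM in cytokinesis failure and did not pass the test (-0.057 ± 0.087, adjusted p = 0.72).

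Mesenchymal genes were also lower, in 11 of 20 tested members against 1 higher, with a median of -0.40. Besides DKK3 and TNC, they were the tropomyosin TPM2 (-0.50 ± 0.054), the microfibril proteins MFAP5 (-1.30 ± 0.20) and FBN1 (-1.22 ± 0.23), N-cadherin (CDH2, -0.56 ± 0.11), the collagens COL5A1 (-0.74 ± 0.16) and COL6A1 (-0.55 ± 0.14), THY1 (-0.89 ± 0.25), CALD1 (-0.23 ± 0.068) and fibronectin (FN1, -0.58 ± 0.20). FN1 stood at 9.14, 7.84 and 8.23 CPM in fusion and 15.7, 10.2 and 11.9 in cytokinesis failure, both below the controls at 19.9, 22.5 and 18.6. MMP2, encoding a gelatinase, was the higher member (1.04 ± 0.31). The fibroblast markers COL1A2, COL3A1, DCN, LUM, PDGFRB and POSTN were too low to be tested in either group. DESeq2 called 7 of these genes lower and limma on TPM 10.

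Of 40 tested members of the adhesion list, 11 were higher and 5 lower (median 0.077), with 7 higher and 3 lower on TPM and 3 lower when replicate 1 of cytokinesis failure was left out. ITGA2, the collagen-binding integrin α chain, was at 79.9, 80.4 and 86.2 CPM in fusion and 40.8, 34.7 and 43.98 CPM in cytokinesis failure, with the groups apart (1.04 ± 0.086, adjusted p = 1.1e-17). The higher members also included COL17A1 (0.64 ± 0.046), LAMB3 (0.57 ± 0.054), ITGA6 (0.29 ± 0.043) and the cross-linker PLEC (0.28 ± 0.065, not called on TPM), which were picked out after their values were seen. COL17A1 was at 405, 371 and 387 CPM in fusion, near the control, and at 254, 249.1 and 241 CPM in cytokinesis failure. Of the lower members, the laminin chain LAMB1 was at 104, 95.8 and 105 CPM against 172, 165 and 164 CPM (-0.72 ± 0.062, adjusted p = 8.2e-17) and the chain LAMA5 differed by -0.28 ± 0.079. THBS1, the matricellular thrombospondin 1, was at 309, 299 and 319.7 CPM against 483, 492 and 515 CPM (-0.68 ± 0.044, adjusted p = 1.4e-23), and the basement membrane collagen COL4A1 was lower too (-0.19 ± 0.071).

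Among proteases and the urokinase system, 8 of 27 tested genes were higher (5 by DESeq2) and 2 lower (median 0.15). With MMP1 and SERPINB2 the higher genes were urokinase itself (PLAU, 0.62 ± 0.12), the inhibitors SERPINE2 (0.77 ± 0.15) and TFPI2 (0.72 ± 0.16), the cathepsin CTSL (0.34 ± 0.10), tissue factor (F3, 0.10 ± 0.038) and MMP10 (1.31 ± 0.49). In edgeR's quasi-likelihood test F3 and MMP10 were near the threshold (adjusted p = 0.041 and 0.049). They lost the call in 10 of 15 and 9 of 12 alternatives. PLAU stood at 34.8, 33.1 and 41.4 CPM in fusion and 21.9, 23.2 and 25.9 in cytokinesis failure, both under the control at 47.3, 47.7 and 44.5. TIMP2, an inhibitor of matrix metalloproteinases, was lower, at 75.8, 71.7 and 73.7 CPM against 111, 99.6 and 115 CPM (-0.56 ± 0.071, adjusted p = 7.9e-10).

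Of 31 tested YAP and TAZ targets and Hippo genes, 6 were higher and 7 lower, with 3 and 6 by DESeq2 and 2 and 6 on TPM. ANKRD1, a YAP target, was at 78.7, 70.8 and 72.2 CPM in fusion and 39.1, 37.03 and 41.5 CPM in cytokinesis failure, where fusion exceeded the control (48.6 to 54.7) and cytokinesis failure fell short of it (0.91 ± 0.087, adjusted p = 1.2e-14). WWTR1, which encodes TAZ, was higher (0.60 ± 0.07), while the TEAD partner VGLL1 (-1.25 ± 0.12), the YAP inhibitor PTPN14 (-0.51 ± 0.06) and TEAD1 (-0.42 ± 0.052) were lower. CTGF was called higher (0.72 ± 0.20) with overlapping groups. In the TGF-beta list, 5 of 29 were higher and 7 lower: the activin inhibitors FST (0.87 ± 0.085) and FSTL3 (0.90 ± 0.14) and the target TGFBI (0.45 ± 0.071) were higher, and the ligands BMP4 (-0.89 ± 0.13) and TGFB2 (-0.72 ± 0.13) lower. Of 25 Wnt pathway genes, 3 were higher, the inhibitor DKK1 (0.59 ± 0.066), the ligand WNT7A (1.28 ± 0.22) and the receptor FZD8 (0.75 ± 0.21), and 5 were lower, among them WNT5A (-1.58 ± 0.37) beside TCF7L1 and DKK3. Without replicate 3 of fusion 3 Wnt genes were lower.

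Oncofetal factors were higher in 6 of 14 tested members and lower in 2 (median 0.36). HMGA2, a chromatin architectural factor, was at 89.9, 82.1 and 88.7 CPM in fusion and 48.1, 60.5 and 50.2 CPM in cytokinesis failure (0.72 ± 0.08, adjusted p = 6.5e-12), and HMGA1 was higher by 0.38 ± 0.038. IGF2BP1, an RNA-binding protein of fetal tissue, was at 16.8, 17.7 and 21.9 CPM in fusion, 9.46, 9.39 and 7.41 in cytokinesis failure and 8.16, 4.97 and 8.54 in control, so that fusion alone lay clear of the control (1.10 ± 0.19, adjusted p = 2.4e-06). Its relatives went apart, IGF2BP2 higher (0.18 ± 0.058) and IGF2BP3 lower (-0.29 ± 0.063). SOX4 was lower (-0.46 ± 0.064). SOX2 had values of 15.04, 15.1 and 17.98 and 11.7, 12.3 and 13.1 CPM and did not pass the test (0.37 ± 0.17, adjusted p = 0.12).

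DNA replication genes were nearly level between the doubled populations: of 53 tested, 0 were higher and 1 lower (PCNA, -0.18 ± 0.065), with a median of -0.0029. The counts moved between 0 and 2 in each direction over the alternatives, with 0 higher and 0 lower by DESeq2, and edgeR's quasi-likelihood test had 6 higher and 6 lower at an unadjusted p below 0.05. Centriole and centrosome genes had 0 of 29 higher and 2 lower, CEP152 (-0.64 ± 0.13) and PCM1 (-0.21 ± 0.068), by edgeR's quasi-likelihood test, 0 and 1 by DESeq2, and 2 higher and 3 lower in edgeR at an unadjusted p below 0.05. PLK4, the kinase that starts centriole duplication, was at 17.99, 14.2 and 18.6 CPM in fusion and 18.7, 16.4 and 16.8 in cytokinesis failure, with overlapping groups (-0.034 ± 0.16, adjusted p = 0.92). KIFC1, the motor that clusters extra centrosomes, was at 61.3, 65.02 and 61.6 and 63.3, 58.4 and 63.99 CPM (0.017 ± 0.085, adjusted p = 0.93). KIF18A, a kinesin on which aneuploid cells often depend, was at 64.6, 57.5 and 67.7 and 59.3, 66.8 and 58.6 CPM (0.04 ± 0.084, adjusted p = 0.81). All 3 had overlapping groups, and an adjusted p above the threshold does not show that levels were equal.

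Mitosis and spindle genes were lower in 14 of 61 tested members and higher in 6, a median of -0.061. DESeq2 called 4 higher and 9 lower, and without replicate 1 of cytokinesis failure edgeR called 9 lower. Several of the called members lie on chromosome arms or stretches described further on, whose part in these differences was not tested. CKAP2, a spindle protein, was at 137, 133 and 133 CPM in fusion and 207, 201 and 218 CPM in cytokinesis failure (-0.64 ± 0.057, adjusted p = 4.0e-16) and lies on 13q. The kinetochore scaffold CASC5 (-0.49 ± 0.056), the spindle protein NUSAP1 (-0.38 ± 0.046) and the checkpoint kinase BUB1B (-0.27 ± 0.06) lie on 15q. The higher kinetochore motor CENPE (0.43 ± 0.05), cyclin A2 (CCNA2, 0.22 ± 0.069) and the checkpoint protein MAD2L1 (0.23 ± 0.084) all lie on 4q, and the groups of CCNA2 and MAD2L1 overlapped. Cyclin B1 (CCNB1) was lower by a small amount (-0.14 ± 0.048) and CDC20 higher (0.22 ± 0.047). Among 41 DNA repair genes, 5 were lower, among them FANCD2 (-0.35 ± 0.079), and RBBP8 was higher (0.30 ± 0.10). These shares were 12.2% lower and 2.44% higher, against 8.96% each over all genes. Without replicate 2 of fusion 3 repair genes were lower.

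The p53 and G1 list had 6 of 36 tested members higher and 5 lower (median 0.0015). CDKN1A, encoding the cyclin-dependent kinase inhibitor p21, was at 30.7, 32.5 and 31.7 CPM in fusion and 20.9, 19.6 and 25.2 CPM in cytokinesis failure. The groups were apart and both lay below the controls at 47.3, 54.7 and 48.1 (0.53 ± 0.12, adjusted p = 9.2e-04). RB1, the retinoblastoma gene on 13q, was at 37.7, 35.4 and 35.4 CPM against 55.3, 58.9 and 46.9 CPM (-0.57 ± 0.10, adjusted p = 4.3e-06). CCNE1 stood at 40.4, 45.9 and 44.5 and 42.1, 46.4 and 47.2 CPM with overlapping groups (-0.053 ± 0.10, adjusted p = 0.77), and the Hippo kinase LATS2 did not pass the test (-0.25 ± 0.18, adjusted p = 0.37). CCND2 was not tested, with at most 2 counts in any of the 6 libraries. DESeq2 called 1 member of this list higher and 3 lower, and without replicate 2 of fusion 3 were higher.

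Of 30 tested interferon response genes, 8 were lower and 2 higher, with a median of -0.14, although DESeq2 called 2 lower and 1 higher, and edgeR 4, 5 and 4 lower without replicate 1 or 3 of fusion or replicate 1 of cytokinesis failure. IFIT1, an RNA-binding effector, was at 29.2, 23.8 and 25.3 CPM in fusion and 39.1, 38.6 and 35.3 CPM in cytokinesis failure, where fusion resembled the control range of 20.6 to 26.4 (-0.53 ± 0.12, adjusted p = 5.3e-04). IFIT2 (-0.50 ± 0.13) and the myxovirus resistance genes MX1 (-0.42 ± 0.13) and MX2 (-0.39 ± 0.10) were lower. IFI44 ran the other way, at 41.6, 40.6 and 47.5 CPM against 22.9, 25.3 and 30.4 CPM (0.72 ± 0.11, adjusted p = 6.3e-07), as did OAS1 (0.79 ± 0.19). Of 10 tested genes of cytosolic DNA sensing and cytidine deamination, the DNA sensor IFI16 alone passed (0.57 ± 0.09), a share of 10% higher and near the 8.96% over all genes. In antigen presentation, 4 of 19 were lower, including β2-microglobulin (B2M, -0.15 ± 0.037) and the peptide-loading chaperones CALR (-0.20 ± 0.032) and PDIA3 (-0.45 ± 0.077), and the transporter TAP2 (0.35 ± 0.089) and proteasome subunit PSMB8 (0.27 ± 0.082) were higher. These shares were 21.1% lower and 10.5% higher, against 8.96% each over all genes. Neither TAP2 nor PSMB8 passed with DESeq2, on TPM or without some single libraries (replicate 2 of fusion for TAP2, replicate 1 of either group for PSMB8). B2M and PDIA3 lie on 15q.

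Cytosolic ribosomal protein genes had the highest share of higher calls among the lists with at least 10 tested members, 44 of 75 against 2 lower, with a small median of 0.11, but on TPM only 7 were higher and 6 lower, and without replicate 2 of fusion 29 were higher. The counts on TPM, here and for the lists that follow, include the shift of all genes to a median of -0.077. RPL34 of 4q led them, at 1135, 1134 and 1069 CPM in fusion and 865, 931 and 849 CPM in cytokinesis failure (0.34 ± 0.036, adjusted p = 2.9e-12). RPS27 (0.27 ± 0.034), RPS29 (0.25 ± 0.036) and RPL13 (0.28 ± 0.038) followed, and RPS16 (-0.20 ± 0.035) and RPL12 (-0.11 ± 0.031) were lower. Many ribosomal protein genes have near-identical pseudogenes, so that the assignment of their reads is uncertain. The list took 122539 to 124042 CPM in fusion, 113148 to 117534 in cytokinesis failure and 109931 to 117370 in control. Of 35 chaperones, edgeR on counts called 13 higher and 4 lower and limma on TPM 1 higher and 6 lower, and 8 and 6 higher without replicate 3 of fusion or replicate 1 of cytokinesis failure. HSPA8, the constitutive HSP70, was higher by 0.28 ± 0.032 and the small heat shock protein HSPB8 lower (-0.76 ± 0.094). Nuclear-encoded oxidative phosphorylation genes had 10 of 76 higher and 2 lower on counts, and 1 higher and 9 lower on TPM, and 5, 5 and 6 higher without replicate 1, 2 or 3 of fusion and 6 without replicate 1 of cytokinesis failure. UQCRFS1, the Rieske subunit of complex III, was the largest at 401, 376 and 389 CPM against 259.8, 259 and 270.0 CPM (0.57 ± 0.045, adjusted p = 1.9e-18), with control at 268, 281 and 282.

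In metabolism, 3 aldo-keto reductases of 10p were higher: AKR1C2 was at 257, 261 and 258 CPM in fusion and 166, 176 and 165 CPM in cytokinesis failure (0.61 ± 0.05, adjusted p = 3.7e-18), AKR1C3 differed by 0.87 ± 0.13 and AKR1C1 by 1.05 ± 0.18. These genes are close paralogs whose reads may be shared, and all 3 were highest in the control. The NRF2 list that holds them had 8 of 29 higher and 3 lower (7 and 1 by DESeq2, 5 and 5 on TPM), with the glutathione synthesis enzyme GCLC lower (-0.36 ± 0.073). Of 23 glycolysis genes 6 were higher and 2 lower, with 4 higher by DESeq2 and 2 on TPM. GPI was at 485, 498 and 492 CPM against 394, 369 and 383 CPM (0.36 ± 0.041, adjusted p = 7.9e-12), where cytokinesis failure was close to the control at 376, 368 and 371. HK2 (0.83 ± 0.19) was higher and the glucose transporter SLC2A3 (-0.84 ± 0.20) lower. Of 22 tested hypoxia targets, 2 were higher and 2 lower (9.09% each), near the 8.96% over all genes. Among them VEGFA, the angiogenic factor, was at 15.3, 18.9 and 21.03 CPM against 8.97, 8.61 and 8.89 CPM (1.06 ± 0.18, adjusted p = 2.9e-06), and EPAS1, which encodes HIF-2α, was at 116, 119 and 105 against 195, 190.4 and 193 CPM (-0.76 ± 0.06, adjusted p = 6.4e-19). In the fatty acid list 7 of 26 were higher and 2 lower, with 2 higher by DESeq2 and 2 on TPM. The desaturase SCD was higher (0.36 ± 0.08, not called on TPM) and was above the control in both doubled populations, while its paralog SCD5 was lower (-1.14 ± 0.19, adjusted p = 2.3e-06). The cholesterol list had ACAT2 (-0.24 ± 0.074) and CYP51A1 (-0.31 ± 0.11) lower, neither of them by DESeq2, and 23 of 26 not called. The unfolded protein response list had 2 of 36 higher and 4 lower (2 and 1 by DESeq2), or 5.56% and 11.1% beside 8.96% each over all genes. The retinol dehydrogenase DHRS9 was the largest of the xenobiotic list (1.499 ± 0.26).

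**Figure D3:**
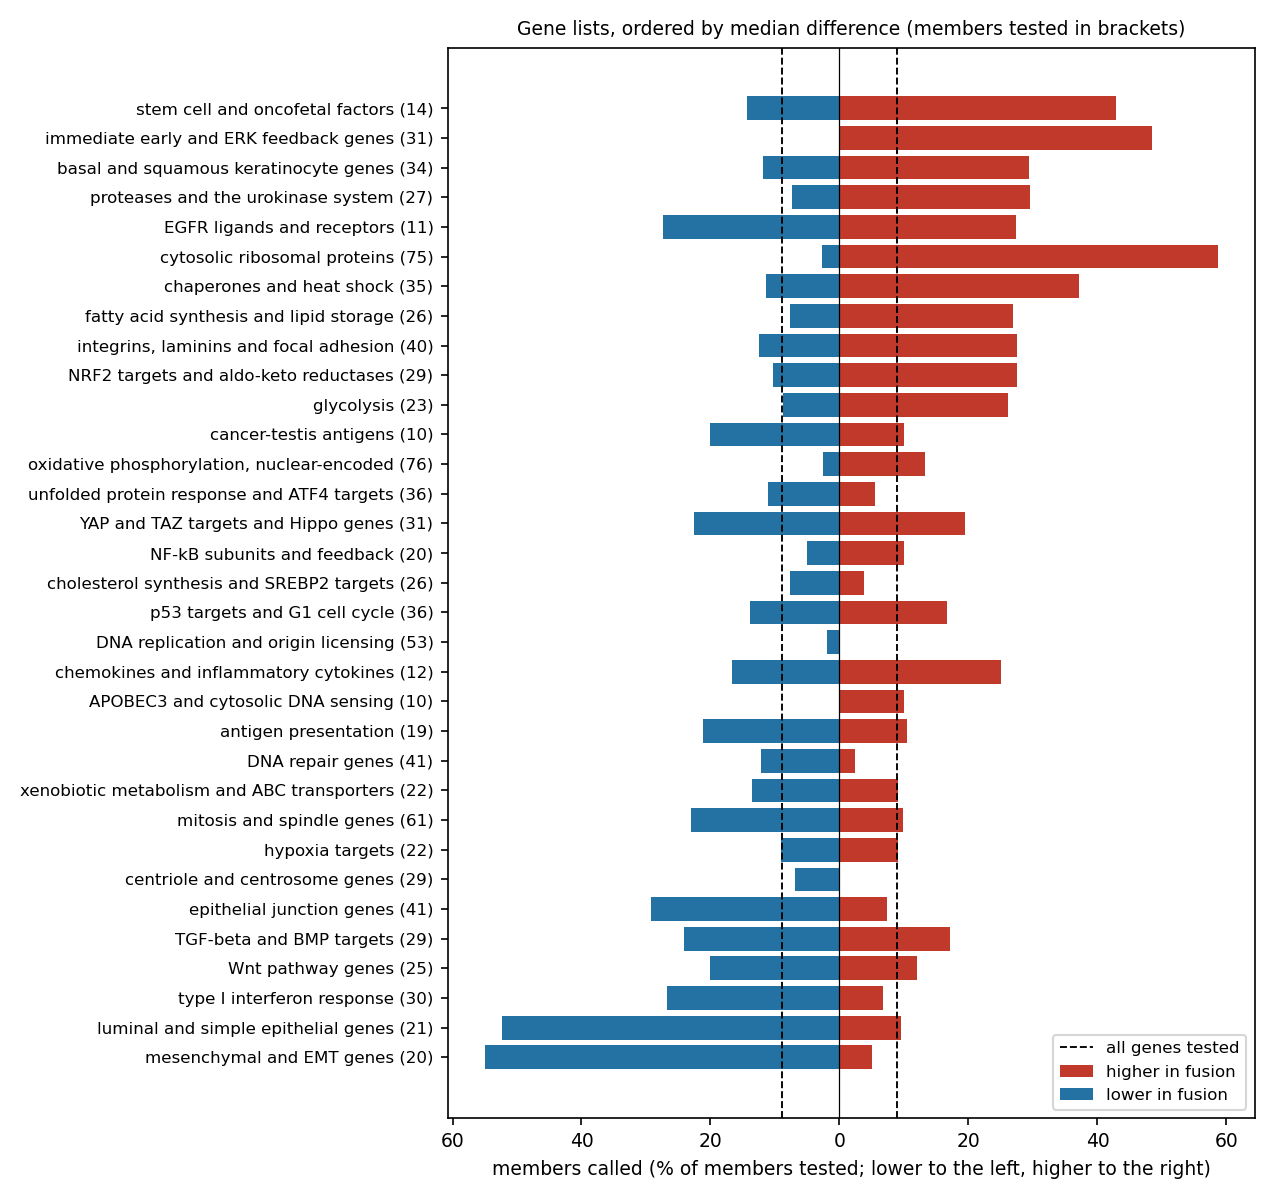
Share of tested members called higher in fusion (bars to the right) or lower (bars to the left), in percent, for 33 gene lists with at least 10 tested members, ordered by the median difference, with dashed lines at the shares over all genes (8.96% each). Oncofetal factors (median 0.36) and ERK feedback genes (0.26) stand at the top and mesenchymal genes (-0.40) at the bottom, while DNA replication genes have nearly no bar.

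Calls were also tallied along chromosomes. Positions from RefSeq on GRCh38.p14 were found for 11205 of the tested genes (97.7%), on 41 arms of at least 20 tested genes. On 5p, 31 of 95 genes were lower (32.6%), with a median of -0.17, and on 15q 90 of 372 were lower (24.2%), with a median of -0.14. The arms 20p and 2p followed, with 20 of 99 and 63 of 321 lower and medians of -0.12 and -0.11. On 4q, 56 of 257 genes were higher (21.8%) and the median was 0.12, and on 17p 29 of 204 were higher with a median of 0.079. In MDA-MB-231 the median of the same comparison had the direction of HCC1806 on 20p (-0.23), 15q (-0.10) and 4q (0.13). It had the opposite direction on 5p (0.041), 2p (0.33) and 17p (-0.15). The genes with the smallest adjusted p on these arms show the size of the shift beside larger single-gene differences. On 5p these were FYB, which went against the arm, BASP1, and SKP2, the adaptor that targets p27 for degradation, at 78.1, 76.6 and 82.6 CPM in fusion and 116, 115 and 113 CPM in cytokinesis failure (-0.53 ± 0.068, adjusted p = 9.2e-10). On 15q, with THBS1, they were tropomyosin 1 (TPM1), at 118, 138 and 121 CPM against 279, 269 and 265 CPM (-1.11 ± 0.055, adjusted p = 1.1e-30), and ZNF106 (-0.40 ± 0.044). On 20p the actin-severing DSTN (-0.32 ± 0.043), cystatin C (CST3, -0.29 ± 0.048) and the antiviral adaptor MAVS (-0.38 ± 0.081) were lower. On 4q, after AREG and RPL34, the cytoskeletal adaptor PDLIM5 was at 101, 102 and 89.9 CPM against 56.3, 53.7 and 63.99 CPM (0.75 ± 0.076, adjusted p = 1.9e-13), and on 17p MPRIP (0.33 ± 0.041), PFN1 (0.24 ± 0.035) and EIF4A1 (0.32 ± 0.043) were higher.

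Bins along the chromosomes were looked at after the arms had been seen and are given as a description. The lower medians of 20p ran along the whole arm, with -0.10, -0.14 and -0.17 in its 3 bins. Of 253 bins of 10 Mb with at least 15 tested genes, the 5th and 95th percentiles of the median were -0.15 and 0.106, and 7 bins lay below -0.2 and 4 above 0.2. The lowest were neighbours on 13q. There, the 59 tested genes from ELF1 (start 40931919) to TDRD3 (end 60573879) held 39 lower, 57 of the 59 were below 0, and the median was -0.51. The ends of this stretch were placed where the sign changed, so its counts follow in part from that choice. Just before it, MRPS31 was higher (0.35 ± 0.083), SLC25A15 did not pass (0.25 ± 0.15) and ELF1, an ETS transcription factor, was lower (-0.61 ± 0.086). At the far end DIAPH3, a formin, was at 88.5, 86.8 and 91.1 CPM against 166, 151 and 157 CPM (-0.83 ± 0.063, adjusted p = 1.3e-19), TDRD3 was lower (-0.64 ± 0.15) and the next tested gene, MZT1, was higher (0.49 ± 0.081). RB1, CKAP2 and ITM2B (-0.64 ± 0.053) lie inside. Relative to the control mean, the median of the stretch was -0.41, -0.43 and -0.37 in the fusion libraries, 0.080, 0.11 and 0.10 in cytokinesis failure and -0.053 to -0.030 in slippage. The fusion libraries were thus the ones set apart. The bin of 13q from 70 to 80 Mb was among the 4 highest, with 7 of 18 higher and a median of 0.30. The other 141 tested genes of 13q had 23 higher and 6 lower, with a median of 0.095, and in MDA-MB-231 the genes of the stretch had a median difference of 0.080.

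On 4q the stretch from 100 to 120 Mb held 39 tested genes, 22 of them higher, with a median of 0.38. Here the cytokinesis failure libraries were the low ones, at -0.25, -0.28 and -0.25 relative to control, and fusion was at 0.11, 0.097 and 0.15. On 15q from 40 to 60 Mb, 61 of 131 tested genes were lower and 2 higher, with a median of -0.29. Fusion was at -0.19, -0.24 and -0.23 relative to control, and cytokinesis failure at 0.094, 0.071 and 0.10. In each stretch the 3 libraries of a doubled population lay on one side of the control mean. Copy number was not tested, since the low-pass genome sequencing of the study was not analysed here.

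**Figure D4:**
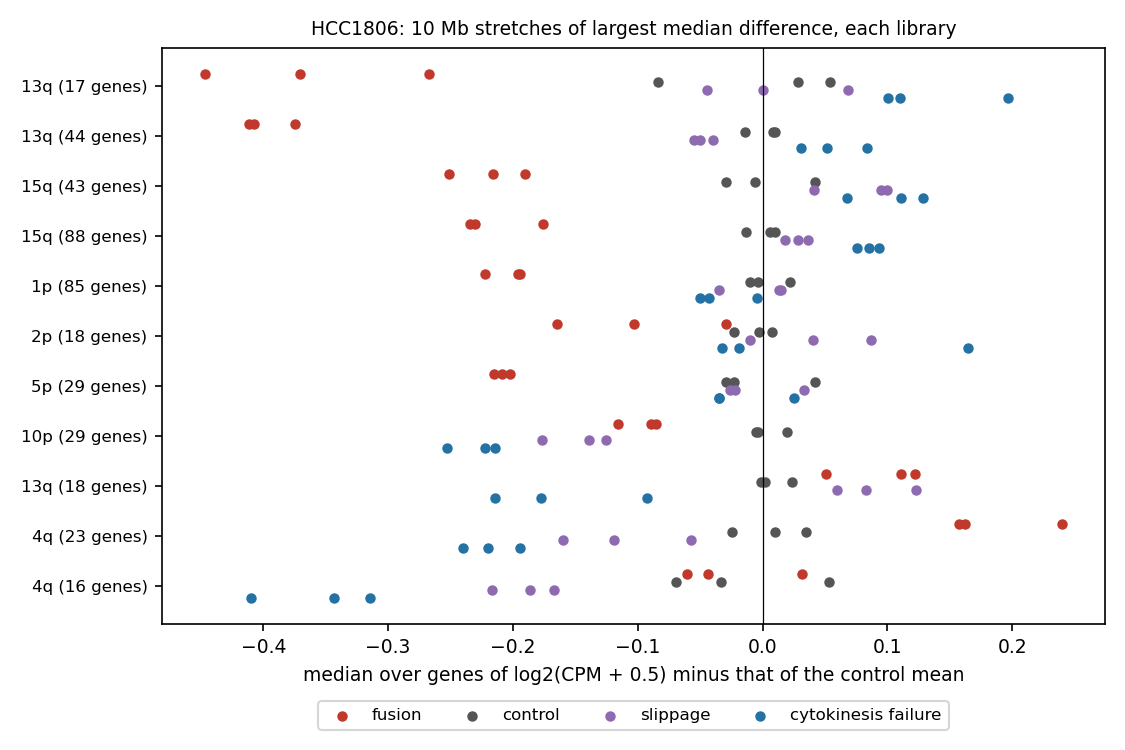
Median over tested genes of the log2 level relative to the control mean (horizontal axis), 1 point per HCC1806 library, for the 11 bins of 10 Mb (vertical axis, 1 row a bin) whose median difference lay below -0.2 or above 0.2. In the upper 2 rows, from 13q, the fusion points lie lowest and the control and slippage points near 0, and in both 4q rows the cytokinesis failure points lie lowest.

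The same comparison in MDA-MB-231 called 2795 of 11424 tested genes (24.5%), and a fit of both lines called 2030 of 12563 genes for a difference between the lines (16.2%). Replicate 1 of MDA-MB-231 cytokinesis failure stood apart, with a chi-square per degree of freedom of 2.52 and 2.55 in its pairs against 1.63 in the other pair, and without it these counts were 2694 and 2017. Of 10369 genes tested in both lines, 638 were called in both, which is 35.2% of the HCC1806 calls and 25.1% of the MDA-MB-231 calls among them. Of these, 377 had the same direction (234 higher, 143 lower) and 261 the opposite. Across genes, which are not independent replicates, the log2 differences of the lines had a Pearson r of 0.032 and a Spearman rho of 0.049.

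MMP1 was higher in both lines. In MDA-MB-231 it stood at 21.3, 19.8 and 18.3 CPM in fusion and 6.17, 3.59 and 4.30 CPM in cytokinesis failure, a difference of 2.12 (adjusted p = 6.4e-09), and the difference between the lines did not pass (0.33 ± 0.29, adjusted p = 0.52). ANKRD1 was higher in both as well, with 0.75 in MDA-MB-231. HAS2 went opposite ways, at 3.28, 6.08 and 5.89 CPM in fusion and 17.7, 23.9 and 16.4 CPM in cytokinesis failure of MDA-MB-231 (-1.92, adjusted p = 9.2e-09). Its difference between the lines was 4.51 ± 0.26 (adjusted p = 2.9e-24). With the smallest adjusted p in that direction came also EREG (2.21 ± 0.15), ITGA2 (1.47 ± 0.094), the growth factor midkine (MDK, 1.58 ± 0.11) and profilin 2 (PFN2, 1.45 ± 0.09), the last of which did not differ beyond the test in HCC1806 (0.055 ± 0.044, adjusted p = 0.43). In the other direction were ERRFI1 (-1.71 ± 0.14), EPB41L2 (-1.68 ± 0.13), IGFBP3 (-1.52 ± 0.092), the CDC42 effector CDC42EP3 (-0.96 ± 0.08) and the glycolytic enzyme enolase (ENO1, -0.83 ± 0.056). CDKN1A was higher in HCC1806 and lower in MDA-MB-231 (-0.70, adjusted p = 1.2e-10), a difference between the lines of 1.22 ± 0.13 (adjusted p = 2.0e-11). MYC was higher in both (0.40 in MDA-MB-231), DUSP6 differed by 1.35 ± 0.11 between the lines, and the median of the 13q stretch was near 0 in MDA-MB-231, as given above.

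**Figure D5:**
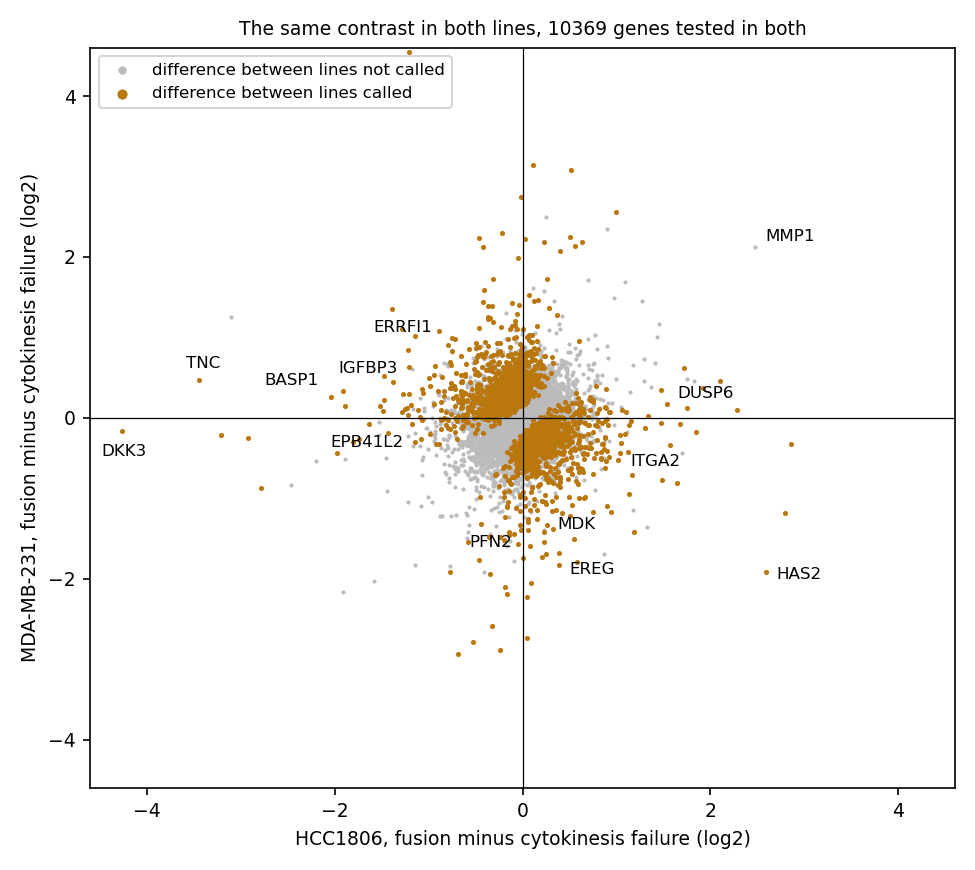
Log2 difference between fusion and cytokinesis failure in MDA-MB-231 (vertical axis) against HCC1806 (horizontal axis) for the 10369 genes tested in both lines, with the 1929 genes whose difference itself differed between the lines coloured. MMP1 lies at the upper right uncoloured and HAS2 at the lower right coloured; 9 genes lie beyond the axes.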

How the data were processed

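The deposited gene table holds estimated counts from Salmon and a separate deposited table holds TPM, per the submitters' processing notes, which name STAR, Salmon and GRCh38 without tool versions. The annotation, strand setting and use of molecular identifiers are not given in the sources used here. Of the estimated counts in the 6 libraries, 4.61% were not whole, and they were rounded. Counts of the 12 HCC1806 libraries (4 groups) were fitted with edgeR 4.0.16 in R 4.3.3, using TMM factors, its filterByExpr rule and robust quasi-likelihood tests. Standard errors were derived from each difference and its F value, and a gene was called at a Benjamini-Hochberg adjusted p below 0.05. All 24 libraries were fitted together for the difference between lines. Positions and promoters are from RefSeq on GRCh38.p14, and symbols follow the deposited tables.

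Members, lists and tests were chosen with earlier results of these data known. The named genes were the 15 higher and 15 lower genes of largest difference (mean log2 CPM of at least 2, groups not overlapping), up to 4 per list and 3 per arm by adjusted p, 5 per direction for the line difference, and fixed genes; other list members and genes at the ends of stretches were named after their values were seen, and some genes are not reported here. On data simulated for this comparison (11467 genes), 67 of 100 genes changed by 0.5 and 94 of 100 changed by 1 on the log2 scale were recovered, with 3 of 11141 unchanged genes called. Changed genes were drawn only above a minimum mean count, and the simulated spread followed the trend with level, not each gene's own. The recovered shares therefore do not cover genes of low count, some of which are named above. Alternatives were DESeq2 1.42.0, RLE factors, limma 3.58.1 on log2(TPM + 1) and log2(TPM + 0.1), other filters, a fit of the 6 libraries, leaving out each replicate, a replicate block and, added after the data were seen, thinning. The TPM were used as deposited, without TMM or other scaling between libraries.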

Additional observations from a re-analysis of the deposited data

Results flagged for a closer look

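Of the 214 genes named above and tested in HCC1806, 167 were tested in both lines. For 110 of these, the difference between fusion and cytokinesis failure itself differed between HCC1806 and MDA-MB-231, which is why they are collected here. Their adjusted p in edgeR's quasi-likelihood test ran from 2.9e-24 to 0.045. Among all genes tested in both lines, the same test called 1929 of 10369. Many of the named genes were chosen for their difference or adjusted p in HCC1806, and some for the line difference itself. The higher share among them, and the signs below, therefore follow in part from that choice. The values below are the HCC1806 difference minus the MDA-MB-231 difference on the log2 scale, so that a positive value means that fusion was higher relative to cytokinesis failure in HCC1806 than in MDA-MB-231. They were positive for 62 and negative for 48, and for 71 of them the fitted differences of the lines had opposite signs. Replicate 1 of MDA-MB-231 cytokinesis failure, which stood apart, is included in these values.

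Cell cycle and genome maintenance genes had positive values for CCNE1 (0.56), CENPE (0.42) and CDC20 (0.26). Negative values were those of CKAP2 (-0.69), CEP152 (-0.52) and PCM1 (-0.28). Genes named for their size, position or line difference had positive values for HAS2 (4.51), DEPDC1B (3.17), HAS3 (2.59), HAS2-AS1 (2.45), CCNA1 (2.18), TSPAN5 (1.61), MDK (1.58), PFN2 (1.45), HS3ST1 (1.09), PDLIM5 (0.92), PVRL1 (0.76), MPRIP (0.59), MZT1 (0.54), PFN1 (0.35) and EIF4A1 (0.33). Below 0 were BASP1 (-2.30), PPM1H (-2.26), SAMD12 (-2.05), EPB41L2 (-1.68), LIFR (-1.55), IGFBP3 (-1.52), FBXO27 (-1.49), TPM1 (-1.21), CDC42EP3 (-0.96), DIAPH3 (-0.85), SKP2 (-0.62), ELF1 (-0.60), CASC5 (-0.57), ITM2B (-0.55) and ZNF106 (-0.39). Immediate early, ERK feedback and EGFR genes had positive values for EREG (2.21), DUSP6 (1.35), DUSP4 (1.22), IER3 (0.83), HBEGF (0.73), PHLDA1 (0.64), AREG (0.55), FOSL1 (0.53) and MYC (0.37). Values under 0 belonged to ERRFI1 (-1.71) and EGFR (-0.57). Keratinocyte, luminal and junction genes had positive values for S100A2 (0.44) and SFN (0.31). The opposite sign was found for CLDN4 (-0.72), TJP1 (-0.35) and KRT18 (-0.33). Mesenchymal, adhesion and protease genes had positive values for ITGA2 (1.47), COL4A1 (1.31), TFPI2 (1.08), FN1 (0.95), ITGA6 (0.95), COL17A1 (0.52), PLAU (0.41), PLEC (0.40), LAMB3 (0.26) and F3 (0.25). Negative values were those of DKK3 (-4.10), TNC (-3.92), TIMP2 (-0.68), COL5A1 (-0.65) and LAMB1 (-0.55). Metabolic, chaperone and ribosomal genes had positive values for AKR1C3 (1.25), VEGFA (0.95), GPI (0.40), UQCRFS1 (0.37), RPL34 (0.22), RPS27 (0.20) and HSPA8 (0.16). Below 0 were HSPB8 (-1.21), SLC2A3 (-1.18), SCD5 (-0.85), ENO1 (-0.83), EPAS1 (-0.82), CYP51A1 (-0.73), RPS16 (-0.58), ACAT2 (-0.39) and RPL12 (-0.24). NF-kB, cytokine, interferon and antigen presentation genes had positive values for TNFAIP3 (1.54), ICAM1 (1.13), NFKB1 (0.66), CD68 (0.63), IFI16 (0.49), IFI44 (0.45) and PSMB8 (0.37). Values under 0 belonged to IFIT2 (-1.06), IFIT1 (-0.82), PDIA3 (-0.49), CALR (-0.40) and NFKBIB (-0.36). YAP, TGF-beta, Wnt and oncofetal genes had positive values for FZD8 (1.91), FSTL3 (1.30), CDKN1A (1.22), FST (0.90), WWTR1 (0.86), TGFBI (0.72), HMGA2 (0.49), DKK1 (0.33) and HMGA1 (0.21). The opposite sign was found for TGFB2 (-0.88), BMP4 (-0.58), SOX4 (-0.54), IGF2BP2 (-0.53), TEAD1 (-0.52) and PTPN14 (-0.33).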

How the results depend on the processing

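The count of 2055 calls became 933 with DESeq2 (929 shared, 45.2% of the calls of edgeR) and 199 with a minimum of 1 on the log2 scale. It was 1979 to 2122 with RLE factors, other filters or the 6 libraries alone, 1496 on log2(TPM + 1) and 1484 on log2(TPM + 0.1), where 328 and 326 were higher and 1168 and 1158 lower, and 1803 after thinning. Leaving out 1 replicate gave 1498 to 1865 calls. In MDA-MB-231 the 2795 calls became 1572 with DESeq2 and 2137 to 2694 without 1 replicate, and the split of 1443 higher and 1352 lower became 586 and 1950 on TPM. The difference between the lines had 1741 to 2017 calls without 1 replicate and 1578 with DESeq2, against 2030. Of 4690 values for 314 genes under these alternatives, 4382 kept their direction and side of the threshold, 265 lost the call and 23 gained it. The other 20, in 8 genes not called in either fit, changed sign. On log2(TPM + 1) and log2(TPM + 0.1) these were AXL (-0.076 and -0.11), KIF18A (-0.049 and -0.052), KIFC1 (-0.076 and -0.079) and PFN2 (-0.033 and -0.034), and SAMHD1 was at 0.094 after thinning. Without 1 replicate AXL ran from -0.21 to 0.24, KIF18A from -0.011 to 0.10, KIFC1 from -0.021 to 0.041, PLK4 from -0.11 to 0.078, CCNE1 from -0.103 to 0.00053 and CDH1 from -0.15 to 0.0023. List counts stayed within 1.5 times in 922 of 1110 values, and arm medians moved in 99 of 369. The cause of these changes was not tested. Same-numbered replicates of fusion and cytokinesis failure did not deviate together (r from -0.024 to 0.035 over 7465 genes). This does not show whether they shared a day or batch, which the labels do not state. A replicate block gave 2042, 2596 and 1964 calls for HCC1806, MDA-MB-231 and the line difference. Depth limits genes near the filter, and the lower counts of the self-test at small changes (67 of 100 at 0.5) show that smaller differences were often not detectable. Standard errors cover the spread between the libraries of a route, which may all come from 1 derived population.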
